A study of Mus musculus with 8 samples.

Results

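The interferon response and MHC class I were followed in mouse quadriceps femoris muscle through 9 genes: Irf7, Irf9, Isg15, Ifit1, Ifit3, Ifih1, B2m, H2-K1 and H2-D1. They were taken by gene symbol from the deposited expression table, and all 9 were found among its 14012 genes. The study sequenced polyadenylated RNA from 4 mice labelled KO (Grpel1 smk -/-) and 4 labelled WT (Grpel1 flox/flox), 1 library per mouse, to see how muscle responds when the mitochondrial import co-chaperone GRPEL1 is lost. All 8 mice carried the floxed Grpel1 allele. In the knockouts it was recombined by HSA-Cre-ERT2, a tamoxifen-inducible Cre driven by the human skeletal muscle actin promoter, so that fibres were targeted and the vessels, leukocytes and fat between them were not. Mice aged 5 weeks were injected with tamoxifen on 5 consecutive days, and knockouts reached the end point in the weeks that followed. The study calls floxed littermates untreated where it compares body weight and kept floxed groups with Cre or with tamoxifen alone, but does not say which of these were sequenced as controls, so the deletion and the drug cannot be told apart if the controls were untreated.

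Interferons are secreted proteins that cells release after sensing viral or misplaced nucleic acid. Type I interferon binds a receptor whose JAK kinases activate transcription factors, and these together with IRF9 switch on interferon-stimulated genes through a promoter sequence called the interferon-stimulated response element (ISRE). MHC class I molecules, a polymorphic heavy chain held by beta-2-microglobulin, show peptides from inside the cell to CD8 T cells, and resting muscle fibres are known for carrying little of them.

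The promoters show which of these genes hold the letters of the ISRE core, GAAANNGAAA or its reverse complement TTTCNNTTTC, within the 250 bases before to 50 bases after the annotated start. It was found on either strand in 5 of 9 members, Isg15, Ifit1, Ifit3, Ifih1 and B2m, beside 3.99% of the 27025 genes, and 3.44% of the 32851 promoters, of the RefSeq table for GRCm38.p6. Isg15 had 3 overlapping matches, the first beginning 78 bases before the start, and Ifit1 and Ifit3 had 2 matches each. B2m had 1 match beginning 139 bases before the start, and Ifih1 had 1 beginning 32 bases after it. The core of the interferon gamma-activated site, TTCNNNGAA, was in no promoter window of the 9 members, beside 9.55% of all genes and 8.30% of all promoters. A match is only a run of letters and not a measured binding site. The stretches with the upstream matches are given 5′ to 3′ on the strand of the gene, with the matches in capitals, because Isg15, Ifit1 and Ifit3 are the interferon-stimulated effectors measured here, B2m stands for MHC class I, and Cxcl10 is the related gene with the largest difference described further on.
Isg15, chr4:156200855-156200916, minus strand: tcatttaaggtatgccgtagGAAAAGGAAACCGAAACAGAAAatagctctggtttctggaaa
Ifit1, chr19:34640765-34640833, plus strand: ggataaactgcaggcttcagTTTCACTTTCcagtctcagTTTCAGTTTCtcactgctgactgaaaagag
Ifit3, chr19:34583353-34583436, plus strand: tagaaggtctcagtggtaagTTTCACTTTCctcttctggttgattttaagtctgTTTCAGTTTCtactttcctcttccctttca
B2m, chr2:122147528-122147577, plus strand: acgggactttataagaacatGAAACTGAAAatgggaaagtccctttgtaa
Cxcl10, chr5:92349073-92349122, minus strand: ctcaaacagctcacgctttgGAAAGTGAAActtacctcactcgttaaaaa

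The libraries held 16017565 to 20361144 counts assigned to genes. Levels are given as CPM, counts per 1000000 after each library total was scaled by its TMM factor, a factor that lines up the bulk of genes between libraries. Differences are log2 fold changes, knockout minus control, from edgeR's quasi-likelihood test on the counts, and a gene was taken as changed when its p, adjusted over all 14012 genes, was under 0.01. The Grpel1 count does not check the labels, with 68.4 ± 3.04 CPM in controls and 65.3 ± 6.11 in the libraries labelled knockout (SD, n = 4 each) and an edgeR adjusted p of 0.49, so the group names below are those of the labels. For the protein, the study reports less GRPEL1 in knockout quadriceps, by immunoblot and by immunostaining. Muscle fibre markers were abundant in every library, at 237373 to 310195 CPM in sum in controls and 85329 to 122355 in knockouts. Whole muscle was sequenced, so fewer cells of a type and less RNA per cell cannot be told apart in any value given here.

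None of the 9 genes passed the test in knockout muscle. By edgeR 0 of 9 were past an adjusted p of 0.01, where 44.7% of all genes were, 23.6% higher and 21.1% lower in knockouts. Likewise 0 of 9 had an unadjusted p under 0.05, which 63.6% of all genes had, and 0 of 9 passed by DESeq2, by which 48.0% of all genes did. In each of the 9 genes the CPM of the groups overlapped, whereas the groups were fully apart for 53.4% of all genes. The log2 fold change was above 0 for 8 of 9 members, with a median of 0.26 beside 0.07 over all genes. It ran from -0.20 for Irf9 to 0.65 for Ifit3.

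How far these values stand from 0 depended on the scaling. Fibre transcripts took a larger part of the control libraries, and the TMM factors were 0.747 to 0.844 in controls and 1.19 to 1.33 in knockouts. When libraries were scaled by their totals alone, 8 of 9 members, all but Isg15, passed the test as higher in knockouts, but so did 8498 of the 14012 genes while 873 were lower, and the median of all genes stood at 0.73. Of the genes called, 90.7% were higher under library totals and 52.7% under TMM. Relative to the median of all genes, the median member stood at 0.19 under both.

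**Figure D1:**
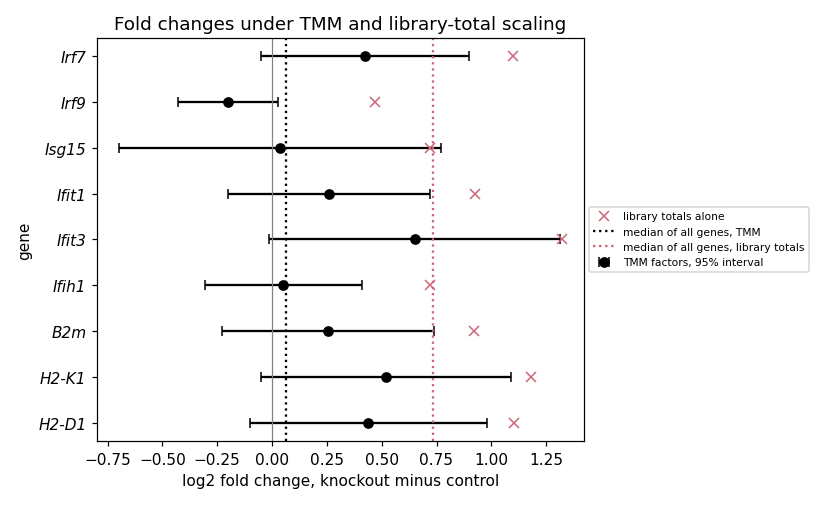
Log2 fold change, knockout minus control, of the 9 genes (rows): black points with 95% intervals are from the edgeR fit with TMM factors, crosses from the fit with library totals alone, and dotted lines mark the median of all 14012 genes under each. All 9 black intervals include 0, and the crosses move right together with the median of all genes, from 0.07 to 0.73.

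Ifih1 encodes MDA5, the cytosolic sensor of long double-stranded RNA (chr2:62595793-62646255, minus strand). It had 7.03, 6.35, 6.01 and 7.81 CPM in control libraries 1 to 4 and 8.01, 8.33, 5.37 and 6.52 CPM in knockout libraries 1 to 4. The lowest and the highest value of all 8 libraries were both in knockouts. The log2 fold change of Ifih1 was 0.05 ± 0.16 (SE), with a 95% interval of -0.31 to 0.41 and an edgeR adjusted p of 0.80, and it changed sign when some single libraries were left out, from -0.06 to 0.13.

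Irf7 encodes the transcription factor that amplifies type I interferon production (chr7:141263183-141266424, minus strand). It had 7.27, 5.37, 4.08 and 4.85 CPM in control libraries 1 to 4 and 7.05, 7.65, 5.12 and 9.02 CPM in knockout libraries 1 to 4. Knockouts 2 and 4 were above every control, knockout 1 was just under the highest control, and knockout 3 lay among the controls. Its log2 fold change was 0.42 ± 0.21 with a 95% interval of -0.05 to 0.90 and an edgeR adjusted p of 0.11.

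Irf9 encodes a DNA-binding factor of the type I interferon response (chr14:55603985-55610030, plus strand). It had 9.61, 10.9, 10.4 and 10.6 CPM in control libraries 1 to 4 and 8.71, 9.34, 8.01 and 10.1 CPM in knockout libraries 1 to 4. Knockouts 1, 2 and 3 were below every control, and knockout 4 was above control 1. Its log2 fold change was -0.20 ± 0.10 with a 95% interval of -0.43 to 0.03 and an edgeR adjusted p of 0.12, and under library totals its sign turned, to 0.47. Irf9 was the steadiest of the 9 genes between libraries of a group, with a coefficient of variation of 5.19% in controls and 9.84% in knockouts.

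Isg15 encodes a ubiquitin-like modifier that interferon induces strongly (chr4:156199424-156200818, minus strand). It was scarce, with 25, 20, 23 and 19 counts in the controls and 28, 35, 23 and 64 counts in the knockouts. In CPM these were 2.02, 1.31, 1.65 and 1.20 in the controls and 1.17, 1.60, 0.949 and 2.54 in the knockouts. The lowest and the highest library were again both knockouts. The log2 fold change of Isg15 was 0.04 ± 0.33 with an edgeR adjusted p of 0.93, and its 95% interval of -0.70 to 0.77 was the widest of the 9 genes, so that differences within it were not detectable at this depth and spread.

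Ifit1 and Ifit3 encode tetratricopeptide proteins that bind viral RNA or support its binding, and lie close together (chr19:34640889-34650009 and chr19:34583529-34588982, both plus strand). Ifit1 had 2.34, 3.34, 2.5 and 2.52 CPM in control libraries 1 to 4 and 4.09, 3.16, 2.27 and 3.34 CPM in knockout libraries 1 to 4. The controls lay inside the range of the knockouts, whose lowest library was knockout 3 and highest knockout 1. For Ifit1 the log2 fold change was 0.26 ± 0.21 with a 95% interval of -0.20 to 0.72 and an edgeR adjusted p of 0.30. Ifit3 had 4.69, 3.54, 2.36 and 4.16 CPM in control libraries 1 to 4 and 5.80, 4.90, 3.47 and 8.90 CPM in knockout libraries 1 to 4. Knockouts 1, 2 and 4 were above every control, and knockout 3 was not. For Ifit3 the log2 fold change was 0.65 ± 0.30, the farthest from 0 among the 9, with a 95% interval of -0.01 to 1.31 and an edgeR adjusted p of 0.084. Without knockout 4 it was 0.33, less than that of H2-K1. Of the 50-base windows of the Ifit3 transcript, 51.2% also occur in Ifit3b, and reads with several matches were excluded by the authors, so the Ifit3 level is uncertain. Ifit3b itself went the other way and did not pass, at -0.34 ± 0.40 with an edgeR adjusted p of 0.48.

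B2m encodes beta-2-microglobulin, the light chain of MHC class I (chr2:122147687-122153082, plus strand). It had 127, 95.4, 62.0 and 119 CPM in control libraries 1 to 4 and 144, 127, 87.7 and 123 CPM in knockout libraries 1 to 4. Control 3 was lowest, knockout 3 was second lowest, and the other knockouts were near control 1. Its log2 fold change was 0.25 ± 0.22 with a 95% interval of -0.23 to 0.74 and an edgeR adjusted p of 0.33.

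H2-K1 and H2-D1 encode the classical heavy chains (chr17:33996012-34000333, minus strand, and chr17:35263094-35267497, plus strand). H2-K1 had 135, 99.2, 62.4 and 134 CPM in control libraries 1 to 4 and 199, 169, 102 and 147 CPM in knockout libraries 1 to 4. Knockouts 1, 2 and 4 were above every control, and knockout 3 was near control 2. For H2-K1 the log2 fold change was 0.52 ± 0.26 with a 95% interval of -0.05 to 1.09 and an edgeR adjusted p of 0.11. H2-D1 had 163, 131, 83.7 and 170 CPM in control libraries 1 to 4 and 236, 214, 123 and 169 CPM in knockout libraries 1 to 4. Here only knockouts 1 and 2 were above every control. For H2-D1 the log2 fold change was 0.44 ± 0.24 with a 95% interval of -0.10 to 0.98 and an edgeR adjusted p of 0.15. Other mouse genes hold 8.79% of the 50-base windows of H2-K1 and 14.3% of those of H2-D1, so both counts leave out reads that fit several class I genes.

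**Figure D2:**
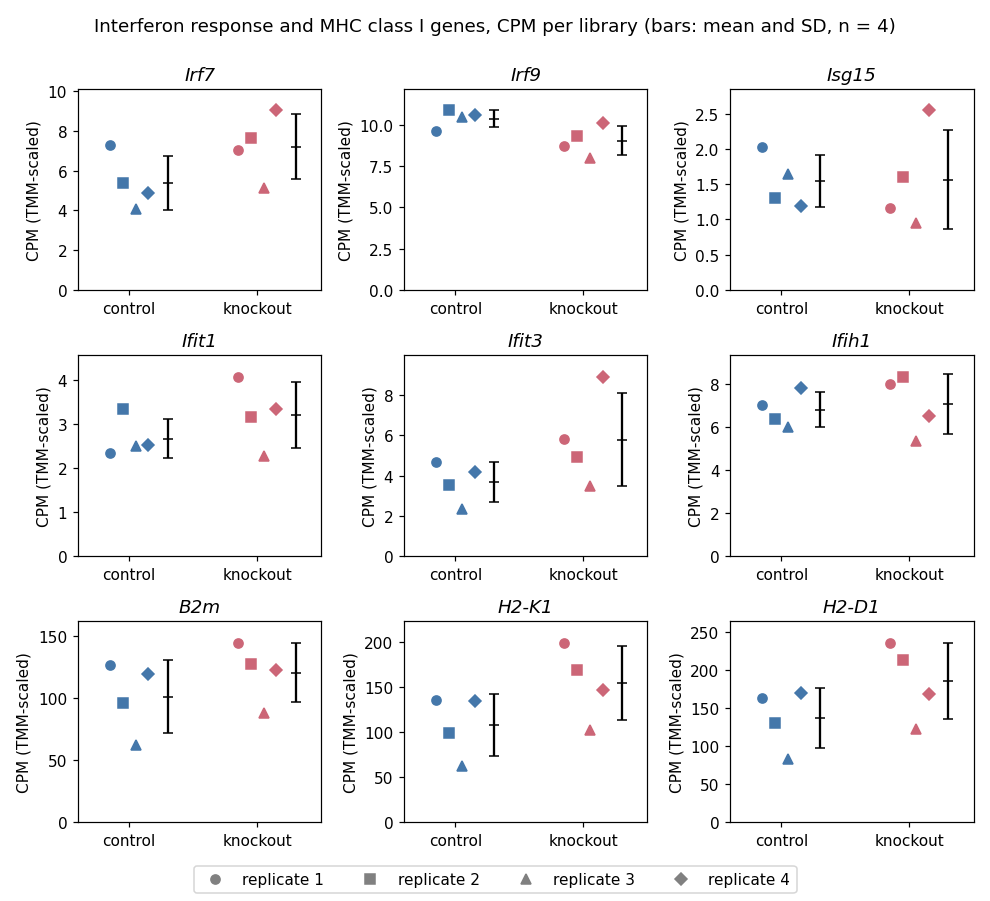
CPM (TMM-scaled, linear axes from 0) of each of the 9 genes in the 4 control (blue) and 4 knockout (red) libraries, with the mean and SD of each group (n = 4). The groups overlap in every panel, and the knockout 3 library (red triangle) is the lowest knockout in all 9.

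The same libraries were low for many of the 9 genes. Knockout 3 was the lowest knockout library for 9 of 9 members, and control 3 was the lowest control for 6 of 9, among them all 3 MHC class I genes. Knockout 1 was the highest knockout for all 3 MHC class I genes, and knockout 4 for 4 of the 9 members. With both replicate 3 libraries left out, an alternative chosen after seeing the data, 0 of 9 members passed, and H2-K1 had a log2 fold change of 0.44 with an edgeR adjusted p of 0.038. Single libraries also moved the values by more than 1.5 times. Without control 3 the log2 fold change was 0.08 for B2m, 0.33 for H2-K1 and 0.26 for H2-D1. Without knockout 1 it was 0.14 for B2m, 0.28 for H2-D1 and 0.11 for Ifit1, and without knockout 4 it was 0.27 for Irf7.

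Markers of other cells also differed between libraries. Beside the marker counts below, 44.7% of all genes passed by edgeR and 48.0% by DESeq2, in either direction. An unadjusted p under 0.05 was reached by 63.6% of all genes, and the CPM of the groups did not overlap for 53.4%. The summed CPM of 6 adipocyte markers was lowest in control 3 among controls, at 248 in a range of 248 to 1459, and lowest in knockout 3 among knockouts, at 685 in a range of 685 to 2481, the highest being knockout 1. None of the 6 adipocyte markers passed the edgeR test (adjusted p under 0.01), 0 of 6 had an unadjusted p under 0.05 and 0 of 6 passed by DESeq2. The sum of 5 markers shared by leukocytes was 10.2 to 23.1 CPM in controls and 23.2 to 37.1 in knockouts, without overlap. Control 3 was again the lowest control, and knockout 1 the lowest knockout. Under library totals the lowest knockout was knockout 3. Of these 5 markers 1 passed by edgeR and 2 by DESeq2, and 5 had an unadjusted p under 0.05, all higher. For 8 macrophage markers the sum was 69.7 to 184 CPM in controls and 156 to 290 in knockouts, the lowest being control 3 and knockout 1. Under library totals these macrophage sums did not overlap, at 52.1 to 142 in controls and 192 to 385 in knockouts. Of these 8 markers 1 passed by edgeR and 4 by DESeq2, and 5 had an unadjusted p under 0.05, all higher. For 6 endothelial markers the sum was 286 to 426 CPM in controls and 212 to 239 in knockouts. By edgeR 4 of 6 were lower, beside 21.1% of all genes. Under library totals the endothelial sums overlapped. T and NK cell markers were nearly absent, 2 of 10 being in the table, and of 4 B cell markers 0 were. Cd3e, a chain of the T cell receptor complex, had 13, 17, 25 and 3 counts in control libraries 1 to 4. In knockout libraries 1 to 4 it had 7, 3, 2 and 4, and it passed as lower (log2 fold change -2.56 ± 0.61, edgeR adjusted p = 0.0050). Its groups overlapped, and the call was lost in 6 of the 8 fits that left out 1 library and under library totals. Cd4, the other listed marker in the table, went the other way and did not pass. It had 3, 1, 3 and 4 counts in control libraries 1 to 4 and 4, 15, 12 and 21 in knockout libraries 1 to 4. The log2 fold change of Cd4 was 1.48 ± 0.57 with an edgeR adjusted p of 0.046. The part of these cells in the levels of the 9 genes and of the genes listed around them was not tested.

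**Figure D3:**
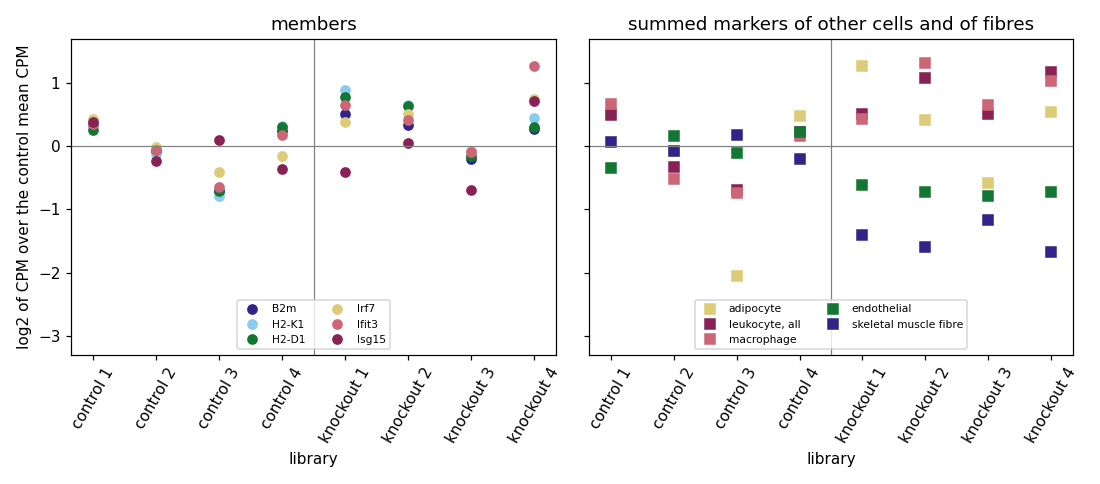
Log2 of CPM over the control mean CPM in each library for 6 of the 9 genes (left) and for the summed markers of adipocytes, leukocytes, macrophages, endothelium and muscle fibres (right). Control 3 and knockout 3 are low for the MHC class I genes and for the adipocyte sum, and control 3 is also the lowest control for the leukocyte and macrophage sums. The knockouts are below the controls for the fibre and endothelial sums under this TMM scaling (the endothelial sums overlap under library totals).

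For levels between genes the deposited FPKM was used, fragment counts scaled by gene length and, between libraries, by a size factor. The scaling of the FPKM followed median-of-ratios size factors to within 0.0024 on the log2 scale, and departed from library totals by up to 0.44. In controls B2m was highest at 119 ± 34.6 FPKM, followed by H2-D1 at 79.6 ± 23 and H2-K1 at 66.2 ± 21.4 (SD, n = 4). The interferon-stimulated genes were far lower, Irf9 at 3.90 ± 0.198, Irf7 at 2.93 ± 0.750, Isg15 at 2.06 ± 0.498, Ifit3 at 1.86 ± 0.510, Ifih1 at 1.24 ± 0.147 and Ifit1 at 1.02 ± 0.173 FPKM. The only neighbours in this order whose control ranges did not overlap were H2-K1 and Irf9. Between 93.7% and 96.5% of all genes had a lower control FPKM than each MHC class I gene, against 24.2% to 48.0% for the other 6. In knockouts the order was the same except that Irf7, at 3.79 ± 0.815 FPKM, stood above Irf9, at 3.29 ± 0.293, and Ifit3, at 2.82 ± 1.11, above Isg15, at 2.02 ± 0.903.

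Ratios of genes within a library do not depend on the scaling between libraries. The B2m FPKM over the H2-K1 FPKM was 1.80, 1.85, 1.91 and 1.7 in the controls and 1.39, 1.44, 1.64 and 1.60 in the knockouts. All 4 knockouts were below all 4 controls, at 1.52 ± 0.124 against 1.81 ± 0.0851. A two-sided exact permutation test gave p = 0.0286, the smallest that 4 against 4 libraries allow, and 0.0857 after Benjamini-Hochberg adjustment over the 3 ratios compared. The ratio of B2m to H2-D1 was 1.34 ± 0.137 in knockouts and 1.49 ± 0.0607 in controls (exact permutation p = 0.114, adjusted 0.114), and that of H2-K1 to H2-D1 was 0.881 ± 0.0331 and 0.824 ± 0.0396 (exact permutation p = 0.0571, adjusted 0.0857). These ratios were chosen after the levels had been seen. None passed after adjustment, but none could reach an adjusted p under 0.01, because the smallest possible p was 0.0286. The test therefore cannot decide at that threshold whether the ratios differed.

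**Figure D4:**
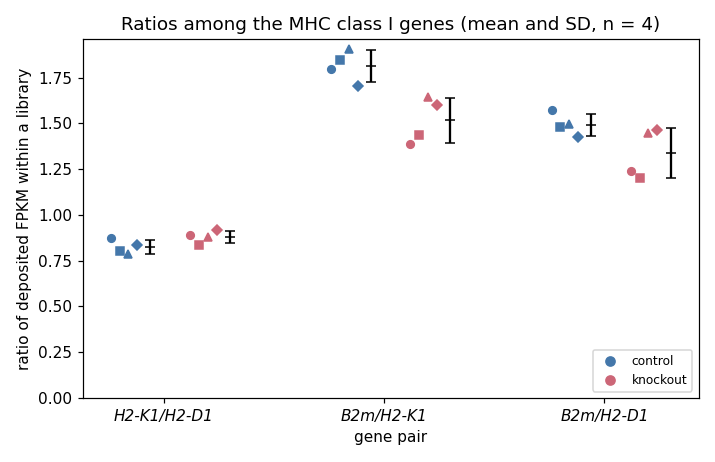
Ratio of deposited FPKM within each library for the 3 pairs of MHC class I genes, controls in blue and knockouts in red, marker shapes for replicates 1 to 4, with mean and SD (n = 4). For B2m over H2-K1 the knockouts (1.39 to 1.64) lie below the controls (1.7 to 1.91), and the other pairs overlap.

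The genes with profiles most like these were sought over the 8 libraries among 12455 genes, by the root mean square distance of log2 CPM from the control mean. Nearest to the mean profile of B2m, H2-K1 and H2-D1 were Fam149a at a distance of 0.11, Psmb8 at 0.12, Tap1 at 0.13, Proca1 at 0.14 and Tap2 at 0.15. Psmb8 encodes an immunoproteasome subunit, and Tap1 and Tap2 form the peptide transporter that feeds MHC class I. Their log2 fold changes were 0.45 for Fam149a, 0.42 for Psmb8, 0.29 for Tap1, 0.48 for Proca1 and 0.40 for Tap2. None of the 5 passed the test. These genes were picked in the same libraries for likeness to members that did not pass, so both results follow from the choice. Nearest to the mean profile of the 6 interferon-stimulated members were Pla2g15, Atox1, Magee1, Galnt4 and 1600012H06Rik, at distances from 0.10 to 0.12. None of these passed either, which again follows from how they were picked.

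Around the 9 genes, 147 other genes of interferon signalling and antigen presentation were listed by role, and 132 of them were in the table. Of these 21 were higher in knockouts, 16 were lower and 95 did not pass, so that 28% were called where 44.7% of all genes were, and their median log2 fold change was 0.08. Under library totals alone 58 were higher and 2 lower, where 66.9% of all genes were called, 8498 higher and 873 lower. None of 9 interferon ligands, Ifnb1 and Ifng among them, was in the table, from which genes with few reads had been left out.

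Of 8 receptors and kinases 3 were higher and 2 lower, so that 62.5% were called beside 44.7% of all genes. The listed kinases did not move together. Jak2 and Jak1 fell by 1.72 ± 0.09 and by 0.80 ± 0.09 on the log2 scale (SE, edgeR adjusted p = 5.16e-07 and 5.51e-05), whereas Tyk2 rose by 0.40. Jak2 had 101.8, 81.0, 88.9 and 97.1 CPM in control libraries 1 to 4 and 28, 30.7, 28.7 and 24.6 CPM in knockout libraries 1 to 4, far apart. Il10rb, a receptor chain shared by interferon lambda and interleukin 10, rose by 1.28, and the type I receptor chain Ifnar1 by 0.35. The Jak1 difference was -0.13 under library totals and no longer passed, and the Ifnar1 call was lost in 7 of the 8 fits that left out 1 library.

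Of 15 nucleic acid sensors and adaptors 4 were higher and 1 was lower, with a median of 0.50. This is 33.3% called beside 44.7% of all genes. Myd88 and Ticam1, the adaptors of Toll-like receptors, rose by 1.35 ± 0.14 and 1.30 ± 0.12, the DNA exonuclease Trex1 by 0.73 and the kinase Tbk1 by 0.40. Mavs, the mitochondrial adaptor that Ifih1 signals through, had a log2 fold change of -0.38 ± 0.09 (edgeR adjusted p = 0.0047), but 0.29 under library totals. Of 8 other IRF and STAT genes 37.5% were called beside 44.7% of all genes. Irf3 was higher at 0.47, and Irf2 and Irf5 were lower at -0.77 and -1.22, neither of which passed under library totals. Of 10 negative regulators 4 were higher and 0 lower, with a median of 0.51. Thus 40% were called, beside 44.7% of all genes in either direction and 23.6% higher. By DESeq2 the counts higher and lower were 4 and 1, while 5 and 2 had an unadjusted p under 0.05 in edgeR. Those past the edgeR test were Socs3, which blocks JAK kinases, at 1.84 ± 0.25, Isg20 at 1.39 ± 0.16, the corepressor Irf2bp2 at 0.82 and the phosphatase Ptpn2 at 0.43. Isg20 is itself an interferon-stimulated antiviral exonuclease and no regulator of the signal, and without it 3 of 9 were higher.

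The other type I interferon-stimulated genes, 47 in the table, had a median of -0.10. Among them 5 were higher and 3 lower, a smaller share than the 44.7% called of all genes. The balance turned with the setting, to 3 and 5 under RLE size factors, 6 and 5 by DESeq2, 7 and 8 at an unadjusted p under 0.05 in edgeR, and 19 and 0 under library totals. In each of these settings a larger share of all genes passed. It was 44.4% under RLE size factors, 48.0% by DESeq2 and 63.6% at an unadjusted p under 0.05. Under library totals it was 66.9%, with 8498 of the 14012 genes higher and 873 lower. The chemokine gene Cxcl10 had 8, 4, 1 and 2 counts in control libraries 1 to 4 and 121, 95, 162 and 145 counts in knockout libraries 1 to 4, a log2 fold change of 4.34 ± 0.39 with an edgeR adjusted p of 9.05e-06. The counts of the controls were too few to fix the size of this difference, but every knockout was far above every control. The proteasome activator genes Psme2 and Psme1 stood at 0.58 and -0.41, Psme1 turning to 0.26 under library totals. The antiviral membrane gene Ifitm3 stood at 0.39, and the ubiquitin ligase gene Dtx3l at -0.44, turning to 0.23 under library totals. Oasl1 at 1.45, Rsad2 at 0.76 and Ifi44 at -1.07, which also passed, are named after their values were seen. The calls of Ifitm3, Psme1, Oasl1 and Rsad2 were lost in at least 4 of the 8 fits that left out 1 library.

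The interferon gamma-induced GTPases, which attack the vacuoles of intracellular microbes, had the lowest median of these lists, -0.61. Of the 14, 6 were lower and 0 higher, so that 42.9% were called. Of all genes 44.7% were called in either direction and 21.1% as lower. The endothelial markers had a median of -0.67, and their part in the GTPase levels was not tested. By DESeq2 7 of the GTPases were lower and 0 higher, where 48.0% of all genes were called in either direction. At an unadjusted p under 0.05 in edgeR 11 were lower and 0 higher, where 63.6% of all genes passed in either direction. Gbp7 had 35.3, 39.9, 45.2 and 23.5 CPM in control libraries 1 to 4 and 9.42, 7.46, 7.72 and 11.3 CPM in knockout libraries 1 to 4, and fell by 2.0 ± 0.20 on the log2 scale. Gbp6 fell by 1.47, Gbp4 by 0.93, Irgm2 by 0.85 and Iigp1 by 0.70, and Tgtp2, named after its value was seen, by 1.30. Under library totals only Gbp7 stayed past the test as lower, at -1.32, Gbp3 at 0.95 and Irgm1 at 0.38 were higher, and the median of the list stood at 0.06, or -0.67 relative to all genes. Of the 8 fits that left out 1 library, 5 lost the call of Iigp1 and 5 that of Tgtp2.

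Of 11 other MHC class I chains 2 were lower and 0 higher, Mr1, which presents vitamin metabolites, at -0.82 and H2-T24, named after its value was seen, at -0.76. Neither passed under library totals, and H2-T24 lost its call in 7 of the 8 fits that left out 1 library. In this list 18.2% were called, beside 44.7% of all genes in either direction and 21.1% lower. By DESeq2 2 were lower and 0 higher, and at an unadjusted p under 0.05 in edgeR 2 were lower and 1 higher. Peptide loading genes had a median of 0.39 over 12 genes, 4 of them higher and 0 lower. Thus 33.3% were called, beside 44.7% of all genes in either direction and 23.6% higher. DESeq2 gave the same counts, while 5 and 0 had an unadjusted p under 0.05 in edgeR. Those that passed were the lectin chaperones Canx at 1.30 ± 0.09 and Calr at 0.39 ± 0.07, the disulfide isomerase Pdia3 at 0.56 ± 0.07 and the peptide editor Tapbpl at 0.75 ± 0.14. Canx, Calr and Pdia3 are general folding factors of the endoplasmic reticulum. Tap1 at 0.29, Tap2 at 0.40, Psmb8 at 0.42 and Psmb9 at 0.40, named after their values were seen, did not pass. Of 7 MHC class II presentation genes 0 passed by edgeR and 0 by DESeq2, and 1, Ciita, had an unadjusted p under 0.05, at -0.77.

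**Figure D5:**
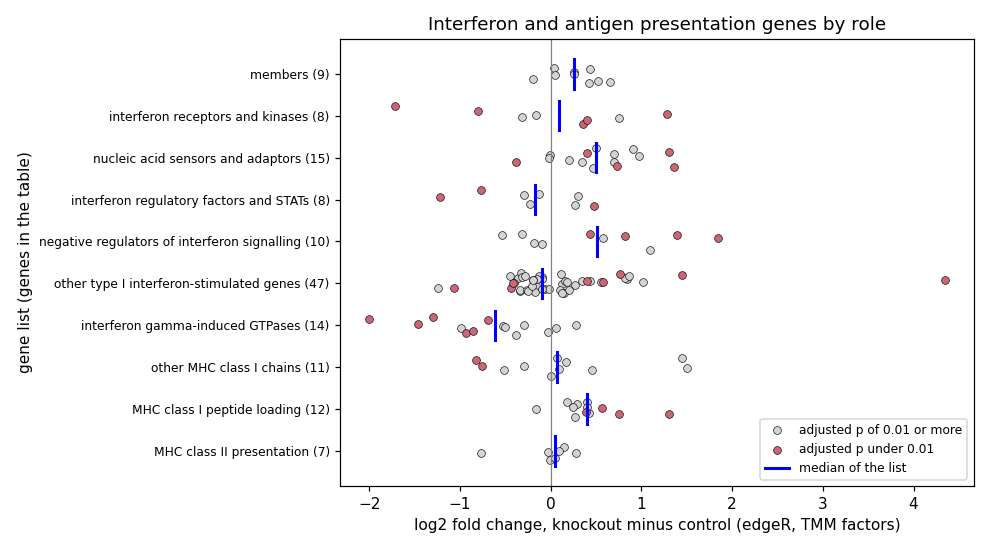
Log2 fold change, knockout minus control (edgeR, TMM factors), of each of the 9 members and the 132 listed genes, 1 line per list with the number of genes in the table; red points passed an adjusted p of 0.01 and blue bars mark the list medians. None of the members is red, and the GTPase list lies lowest, with a median of -0.61.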

How the data were processed

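The authors isolated RNA from quadriceps femoris, made strand-specific libraries and mapped read pairs to GRCm38 with STAR (2.5.4b) after bcl2fastq (2.20.0.422) and cutadapt. They deposited raw counts of read pairs in exons per gene, leaving out duplicates, chimeric and multimapping reads and genes with under 50 reads in all. The annotation release and the use of strand in counting are not given in the sources used here. The deposited FPKM values, scaled by the authors for gene length and by size factors, served only for levels between genes and ratios. The deposited columns of the authors' comparison (mean, log2 fold change and its error, test statistic, p-values) were not used.

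Counts were tested with edgeR (4.0.16, R 4.3.3), group only, TMM factors, Benjamini-Hochberg adjustment over 14012 genes. Alternatives were other scalings, edgeR's expression filter, DESeq2 (1.42.0; its 5 undefined adjusted p-values stayed undefined), a threshold of 0.05, a replicate block and leaving out libraries. Permutation tests used scipy (1.17.1). Scripts were tested on simulated data. Libraries of a group differed by far more than sampling noise, with 17.2 to 42.7 for the chi-square over its degrees of freedom, and 3 counts, the limit that a count of 0 allows, were worth 0.119 to 0.242 CPM. Intervals for counts cover spread between the 4 mice of a group.

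The members and lists were chosen with earlier results of these data known. From each list the text names the 3 highest and 2 lowest log2 fold changes that passed, provided that the groups did not overlap and the mean count reached 50 in 1 of them. Gene coordinates are those deposited by the authors. Promoter coordinates and sequences came from RefSeq and its GRCm38.p6 tables, in which all 9 members matched.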

Additional observations from a re-analysis of the deposited data

Results flagged for a closer look

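A single library stood apart from its group. The CPM of Jak1, control 4, was 201, and the nearest of the other 3 controls was at 255, a gap of 0.971 of the range of the group, above Dixon's 95% critical value for 4 samples. It was the only one of 102 groups of values checked in this way, where chance alone flags about 1 in 20. The check did not cover every gene named here. In H2-T24, for example, knockout 3 was at 1.61 CPM and the other knockouts at 2.11 to 2.17. All 4 controls remained above the knockouts, which had 131 to 153 CPM of Jak1.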

How the results depend on the processing

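With library totals alone as scaling, 8 of 9 members, 60 listed genes, 58 higher and 2 lower, passed the test, the median of the members was 0.93, and the log2 fold change turned sign for Irf9 (0.47), Mavs (0.29), Dtx3l (0.23), Psme1 (0.26) and Irgm1 (0.38), while the median of all genes moved from 0.07 to 0.73. Of all genes 66.9% passed under library totals, 8498 higher and 873 lower. The sign of Isg15 also turned under RLE size factors (-0.011), DESeq2 (-0.016) and the replicate block (-0.015). With single libraries left out, Isg15 ran from -0.33 to 0.19 and Ifih1 from -0.056 to 0.13, the median of the members from 0.14 to 0.39 and the listed genes past the test from 29 to 38, while 0 members passed in each of these 8 fits.

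The replicate block called 1 member, H2-K1 (edgeR adjusted p = 0.0041), and 6123 genes. The numbers were not taken as pairs, because the deviations of same-numbered libraries correlated by 0.118, 0.003, 0.42 and 0.138, and not every library correlated best with its own number. No member passed under RLE or upper-quartile factors, the expression filter, DESeq2, a threshold of 0.05, or without both replicate 3 libraries, which was chosen after seeing the data. For the other named genes, 79 values under alternatives lost the call, 54 of them with 1 library left out, and 10 gained it, and the causes were not tested. Depth limits Isg15 most, with 19 to 64 counts per library.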

Other observations

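A few markers from the lists of leukocyte types stood far apart between the groups. Of all genes 44.7% passed the edgeR test, and 53.4% had groups whose CPM did not overlap. Itgax, an integrin of dendritic cells and macrophages, had 0.566, 0.393, 0.429 and 0.378 CPM in control libraries 1 to 4. In knockout libraries 1 to 4 it had 4.67, 4.44, 5.94 and 5.56 CPM, a log2 fold change of 3.54 ± 0.21. It was the 1 of 5 dendritic cell markers past the edgeR test. The other dendritic cell markers did not follow it, with Batf3 at 0.42, Zbtb46 at 0.16, Siglech at -0.61 and Xcr1 at -0.78. Their groups overlapped, and the median of the list was 0.16. Cd68, a lysosomal protein of macrophages, rose by 2.62 ± 0.27, and was the 1 of 8 macrophage markers past the test. S100a8, a neutrophil calcium-binding protein, had 1.05, 0.0655, 0.286 and 0.0630 CPM in control libraries 1 to 4 and 26.8, 13.2, 36.0 and 15.3 CPM in knockout libraries 1 to 4, with a log2 fold change of 6.07 ± 0.59, and was the 1 of 3 neutrophil markers past the test. The others were S100a9, which encodes its usual partner, at 0.87 ± 0.69, and Csf3r at 1.30 ± 0.57, with overlapping groups and edgeR adjusted p of 0.31 and 0.074. These genes are named after their values were seen, and Itgax, Cd68 and S100a8 each kept its direction and its call under every alternative fitted.

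Among the class I chains H2-Q10 and Cd1d1, picked after their values were seen, varied most with the library. H2-Q10 had 132, 148, 4 and 200 counts in the controls and 1138, 363, 210 and 556 counts in the knockouts. Cd1d1 had 97, 83, 8 and 161 counts in the controls and 651, 303, 153 and 466 counts in the knockouts. The adipocyte marker Adipoq had 1135, 902, 50 and 1322 counts in the controls and 3596, 1874, 778 and 2265 counts in the knockouts, so that for all 3 genes control 3 was the lowest library and knockout 1 the highest. The log2 fold change was 1.51 ± 0.69 for H2-Q10 and 1.45 ± 0.59 for Cd1d1, and neither passed the edgeR test; the part of fat in these levels was not tested.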
